A study of Mus musculus with 22 samples.

Results

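Mouse embryonic fibroblasts on day 21 of a direct conversion toward neural progenitor cells were compared with progenitors taken from the brain. The comparison used the 2 libraries labelled day 21 and the 2 labelled Brain-NPC, 4 of the 22 libraries of the series, and was made across 15717 tested genes of 21504 autosomal genes with a symbol. The day 21 group held the mixed culture present on that day of the induction, and the Brain-NPC group held progenitors derived from neonatal brain. Both came from strain C57BL/6. The sources used here do not give the induction factors, the sex of the animals or the passage of the Brain-NPC cells. They also do not say if replicate libraries came from separate cultures, so each p-value reflects just the variation among the libraries at hand, which may be technical. The labels used here name no sort of the day 21 culture, which can hold converted and unconverted cells.

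Neural progenitors of the perinatal brain are dividing cells that express Sox2, nestin and brain lipid-binding protein, and they give rise to neurons and glia. They keep a memory of the region they came from in transcription factors such as Otx1 and Otx2 of the forebrain, whereas Hox genes are used in the hindbrain, the spinal cord and the mesenchyme of the trunk and limbs. Fibroblasts make collagen-rich matrix, and primary fibroblast cultures from embryos can also hold macrophages and contractile cells.

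Reads counted in transcripts numbered 3084428 and 3243445 in the day 21 libraries and 6777056 and 7331671 in the Brain-NPC libraries, and 12988 to 13820 genes had a count. Values are CPM, read counts scaled to library size, for genes with 1 annotated transcript and FPKM, fragments scaled to length and depth, for genes with several. Calls required a Benjamini-Hochberg adjusted p below 0.05 and a difference of 2-fold or more. The log2 differences given are day 21 minus Brain-NPC ± SE. For a gene with no reads in a group the fold is given as a lower bound against 3 reads over that group, which is 0.479 CPM at day 21 and 0.223 CPM in Brain-NPC. Bounds and intervals cover counting error only.

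Of the 15717 genes, 2200 (14.0%) were higher at day 21 and 1917 (12.2%) were lower. The shares were 14.8% and 13.4% for genes read on counts and 10.9% and 7.31% for genes read on FPKM. Tested over all genes they were 14.5% and 13.5% on counts and 9.88% and 9.16% on FPKM. Both day 21 libraries lay above both Brain-NPC libraries in 36.9% of genes and below them in 35.9%. The median log2 difference was 0.00 and the median absolute difference was 0.67. Spearman's rho across 13809 genes was 0.981 between the day 21 libraries, 0.993 between the Brain-NPC libraries and 0.902 to 0.906 between the groups. The difference moved with base composition. With genes in 5 equal bins of transcript GC content, the median log2 difference was 0.58 in the lowest bin (29.8% to 44.8%) and -0.62 in the highest (56.2% to 72.8%). After a correction for GC content in each library, chosen after seeing the data, these medians were 0.05 and 0.03, and 2145 genes (13.6%) were higher and 1285 (8.18%) lower. Whether the trend lies in the RNA or in the libraries was not tested, and calls of named genes that the correction changed are marked where they are given.

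**Figure D1:**
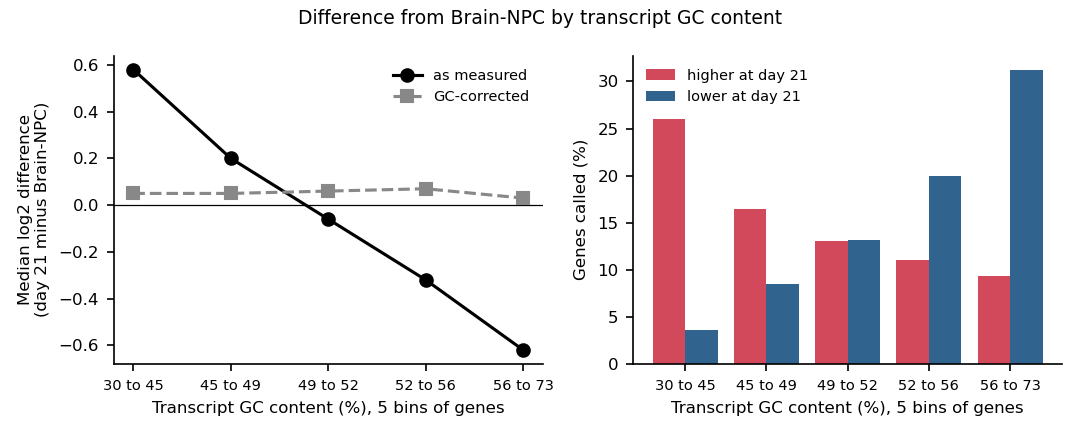
Left, the median log2 difference (day 21 minus Brain-NPC) in 5 bins of genes ordered by transcript GC content (percent), as measured (circles) and with the GC correction (squares). Right, the percentage of genes called in each bin. The measured median falls from 0.58 to -0.62 across the bins, while the corrected one stays within 0.03 to 0.07.

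Sox2 and Fabp7 were not called, whereas other progenitor genes were lower at day 21. Sox2, the transcription factor that maintains neural progenitors (chromosome 3, 34548927 to 34551382, mm9), had 680 and 563 CPM at day 21 and 621 and 661 CPM in Brain-NPC. The groups overlapped (log2 difference -0.04 ± 0.14, adjusted p = 0.862). Fabp7, the brain lipid-binding protein of radial glia, had 4228 and 3824 CPM against 3843 and 3716 CPM (0.09 ± 0.44, adjusted p = 0.933). Pax6, a patterning factor of dorsal forebrain and spinal progenitors, had 24.7 and 25.1 FPKM at day 21 and 15.5 and 17.6 in Brain-NPC. Both day 21 libraries were above both Brain-NPC libraries, as in 36.9% of all genes. The difference of 0.56 ± 0.13 on the log2(FPKM + 1) scale was under 2-fold.

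Over the list as a whole more members were lower than higher. Of the 32 tested members of the neural progenitor list, 15 were lower, 1 was higher and 16 were not called, with a median log2 difference of -0.84. The GC correction left 11 lower and 2 higher and a median of -0.48. In bulk RNA, fewer cells of a type and less RNA per cell cannot be told apart, here and in every group below. Nes, the intermediate filament nestin, had 413 and 391 CPM at day 21 and 1241 and 1345 CPM in Brain-NPC (-1.69 ± 0.13, adjusted p = 1.69e-09). Sox1, a SoxB factor of the neural plate, had 6.87 and 10.6 CPM against 73.3 and 76.3 CPM (-3.09 ± 0.36, adjusted p = 1.32e-06). Vim, the filament vimentin, was lower by 1.22 ± 0.14, a call that the GC correction ended (-0.82). Hopx, a homeodomain protein of quiescent stem cells, was the exception, with 51.5 and 48.0 FPKM against 12.1 and 12.7 (1.92 ± 0.61, adjusted p = 0.0147). Its call was lost without day 21 replicate 1 (1.87) and without Brain-NPC replicate 1 (1.88) or 2 (1.95).

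**Figure D2:**
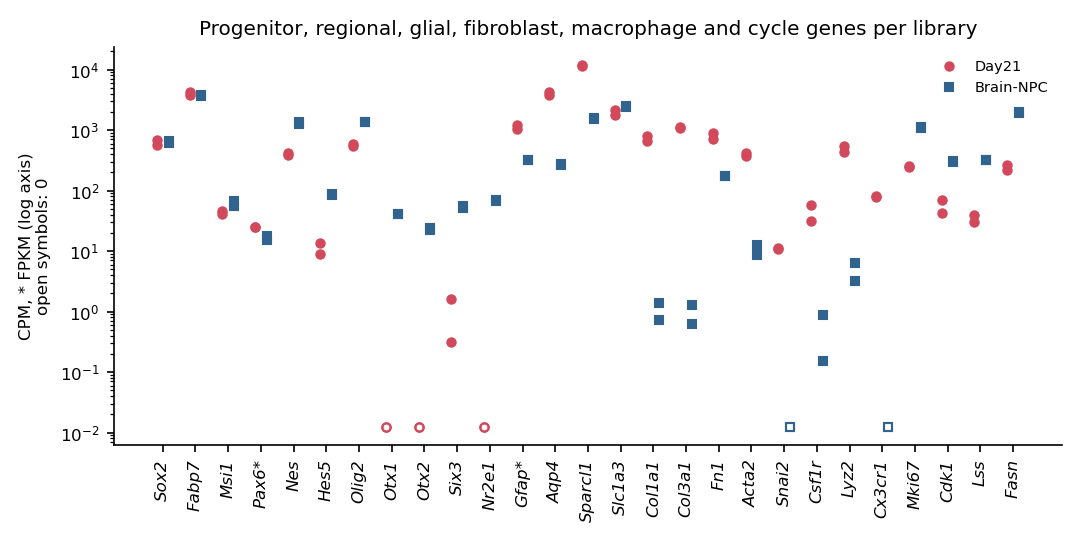
Level of selected genes in each of the 4 libraries, in CPM or, where starred, FPKM, on a log axis; open symbols mark 0. Sox2, Fabp7 and Slc1a3 lie at similar heights in both groups, the forebrain genes Otx1, Otx2 and Nr2e1 are at 0 only at day 21, and collagen and macrophage genes are high only at day 21.

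Several genes of forebrain identity were lower or without reads at day 21. Otx1 and Otx2, homeodomain factors that pattern the forebrain and midbrain, had no counted read in either day 21 library. Otx1 had 40.3 and 41.7 CPM in Brain-NPC, at least 85.6-fold more, and Otx2 (chromosome 14, 49277859 to 49282547, mm9) had 22.5 and 23.8 CPM, at least 48.4-fold more. Nr2e1, the nuclear receptor Tlx that keeps forebrain neural stem cells dividing (chromosome 10, 42281777 to 42303394, mm9), likewise had no read at day 21 and 66.4 and 71.0 CPM in Brain-NPC, at least 143-fold more. Adjusted p-values from edgeR's quasi-likelihood test were 1.75e-05 for Otx1, 1.85e-05 for Otx2 and 5.61e-07 for Nr2e1.

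Six3, needed for the anterior forebrain and the eye, had 1.64 and 0.312 CPM against 51.1 and 56.0 CPM (-5.77 ± 0.74, adjusted p = 3.78e-06). Lhx2, a selector of cortical identity, remained detectable at 15.4 and 12.2 CPM against 155 and 159 CPM (-3.51 ± 0.42, adjusted p = 1.21e-06). In all, 11 of 31 tested members of the forebrain list were lower and 1 was higher. The list median was -2.98, but -0.32 with the 12 members that had no reads in a group set at their bounds. Nr2f2, the nuclear receptor COUP-TFII of ventral and caudal forebrain, which fibroblasts also express, was the 1 higher member, with 9.25 and 9.16 FPKM against 0.926 and 0.916 (2.41 ± 0.16, adjusted p = 2.72e-08). All 12 calls in the list remained with the GC correction.

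Midbrain and hindbrain factors were split, with 8 of 25 tested members higher and 5 lower, and 9 and 4 with the GC correction. Over all genes 14.0% were higher and 12.2% lower. Some of the higher calls rested on few reads. Msx2 had 6 reads at day 21 and 0 in Brain-NPC, at least 4.3-fold more. En1 had 18 and 2, a ratio of 19.3 (95% interval 4.63 to 172). Irx3, a factor of the posterior neural tube and of limb mesenchyme, had 61.2 and 40.6 CPM at day 21 and 4.77 and 4.02 CPM in Brain-NPC (3.53 ± 0.43, adjusted p = 1.3e-06). Msx1, used in dorsal neural tube and mesenchyme, had 35.7 and 34.3 CPM against 2.16 and 1.87 CPM (4.11 ± 0.39, adjusted p = 2.89e-08). Zic2, a dorsal neural tube factor, had 6.22 and 7.49 CPM against 28.2 and 30.5 CPM and was lower (-2.09 ± 0.32, adjusted p = 1.99e-05). Nkx6-1, a ventral factor of hindbrain and spinal progenitors, had 21.3 and 25.0 CPM at day 21 against 1 read over both Brain-NPC libraries, a ratio of 312 (95% interval 55 to 12391).

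Hox genes, which set position along the body axis, were higher at day 21. Of 32 tested Hox genes, 30 were higher at day 21, none was lower, and Hoxc13 and Hoxd13, near 0 in all 4 libraries, were not called. Calls numbered 10 in the HoxA cluster, 8 in HoxB, 6 in HoxC and 6 in HoxD. The list median was 9.15, or 6.79 with the 22 members that had no reads in a group set at their bounds. Their levels summed to 623 and 589 FPKM over the 39 Hox genes at day 21 and to 0.53 and 1.2 FPKM in Brain-NPC.

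Hoxc8, a trunk-level gene (chromosome 15, 102820970 to 102824685, mm9), had 581 and 567 CPM at day 21 and 0.154 and 0.144 CPM in Brain-NPC, a ratio of 3863 (95% interval 1068 to 31907). Its neighbour Hoxc9 had 143 and 132 CPM and no read in Brain-NPC, at least 615-fold more (adjusted p = 1.85e-09). Hoxa5, of the cervical and upper thoracic level, was at least 521-fold higher with 134 and 99.2 CPM, and Hoxb9 at least 461-fold higher with 110 and 96.4 CPM. Mira, an RNA transcribed within the HoxA cluster, had 52.0 and 65.2 CPM against 0 and was at least 264-fold higher. Neighbouring Hox transcripts overlap in places and the strand setting of the counting is not given, so reads of overlapping genes cannot be told apart.

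Hox levels at day 21 also differed from those early in the induction. On day 1 of the induction the 39 Hox genes summed to 225 and 239 FPKM, and Hoxa5 had 7.34 and 9.64 CPM, while Hoxb9 had 133 and 140 CPM. The day 21 sum lay above those of day 1 and day 17 (347 and 433 FPKM), a description without a test. None of the 30 calls was lost with the GC correction, and 29 to 30 were kept in number when any of the 4 libraries was left out.

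**Figure D3:**
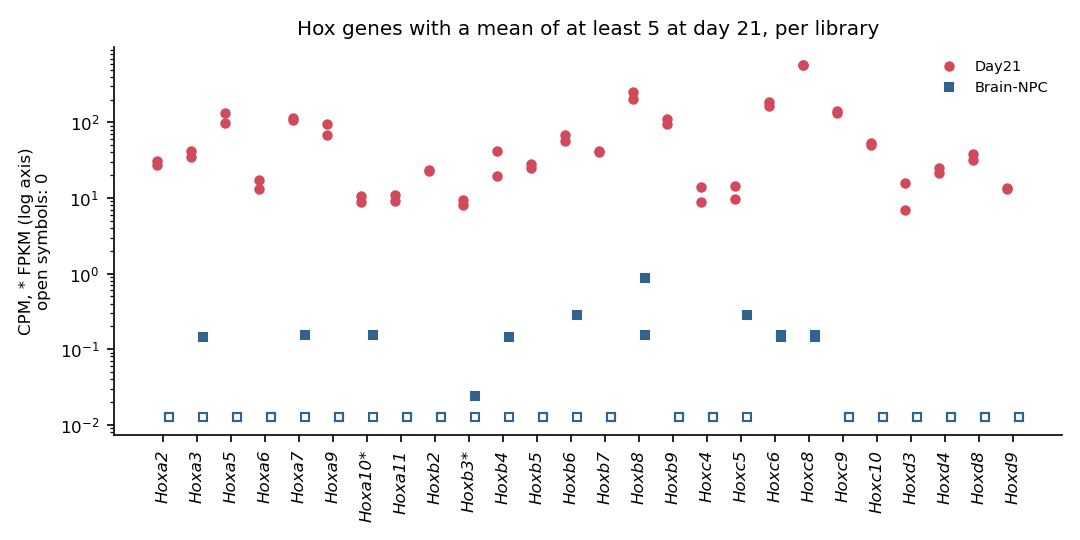
Level of the Hox genes with a mean of at least 5 CPM or, where starred, FPKM at day 21, in the 4 libraries, on a log axis; open symbols mark 0. Both day 21 points lie above both Brain-NPC points for every gene shown, and most Brain-NPC points are open.

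Genes of astrocytes were more often higher than lower at day 21. Of 39 tested members of the astrocyte list, 14 were higher, 6 were lower and 19 were not called. The lower share was near the 12.2% over all genes, and the higher share was above the 14.0%. With the GC correction 16 were higher and 5 lower. Gfap, the astrocytic intermediate filament (chromosome 11, 102748650 to 102758514, mm9), had 1044 and 1200 FPKM at day 21 and 321 and 326 in Brain-NPC (1.79 ± 0.42, adjusted p = 0.00217). Aqp4, the water channel of astrocyte endfeet, had 4247 and 3878 CPM against 262 and 273 CPM (3.93 ± 0.28, adjusted p = 5.32e-10). Sparcl1, a secreted synapse-promoting protein of astrocytes, had 11397 and 11889 CPM against 1554 and 1604 CPM (2.88 ± 0.20, adjusted p = 3.78e-10). In each of these genes both day 21 libraries were above both Brain-NPC libraries, as in 36.9% of all genes.

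Apoe, the lipid carrier secreted by astrocytes and macrophages, had 16964 and 20703 CPM against 5312 and 5626 CPM (1.78 ± 0.40, adjusted p = 0.00112), and by FPKM it was the gene with the highest level at day 21, at 9544 and 11870. Slc1a3, the glutamate transporter GLAST shared by radial glia and astrocytes, was not called, with 2147 and 1761 CPM against 2486 and 2436 CPM (-0.33 ± 0.16, adjusted p = 0.0938).

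The 6 lower members included transporters and enzymes of astrocytes. Slc6a11, the GABA transporter GAT3, had 235 and 249 CPM at day 21 and 1344 and 1337 CPM in Brain-NPC (-2.47 ± 0.22, adjusted p = 1.18e-08). Aldh1l1, a folate enzyme widely used as an astrocyte marker, had 521 and 600 CPM against 2149 and 2195 CPM (-1.95 ± 0.23, adjusted p = 8.32e-07). Others were the glycine transporter Slc6a9, the neurotrophin receptor Ntrk2 and the lipid enzyme Acsbg1, the last of which lost its call with the GC correction (-0.63).

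Of 17 tested genes of reactive glia, 9 were higher and 1, Vim, was lower, and 1 or 2 were lower when a library was left out. C3, a complement component made by reactive astrocytes, macrophages and fibroblasts, had 78.5 and 97.4 CPM at day 21 and 0.462 and 0.431 CPM in Brain-NPC (7.56 ± 0.65, adjusted p = 8.74e-09). Osmr, the oncostatin M receptor, had 36.6 and 57.7 CPM against 8.01 and 6.61 CPM (2.69 ± 0.24, adjusted p = 1.76e-08). Markers of fibroblasts and macrophages were higher in the same libraries, and their part in these differences was not tested.

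Fibroblast genes were higher at day 21 than in Brain-NPC. Of 36 tested members of the fibroblast list, 31 were higher, 1 was lower and 4 were not called, with a median log2 difference of 3.99, and leaving out any library kept 30 or 31 higher. Col1a1, the main chain of type I collagen (chromosome 11, 94797584 to 94813170, mm9), had 663 and 793 CPM at day 21 and 1.39 and 0.718 CPM in Brain-NPC (9.42 ± 0.42, adjusted p = 3.8e-13). Col3a1, of fibrillar type III collagen, had 1065 and 1108 CPM against 0.616 and 1.29 CPM (10.10 ± 0.37, adjusted p = 2.06e-14). Fn1, fibronectin, differed less, with 726 and 885 CPM against 175 and 174 CPM (2.21 ± 0.24, adjusted p = 2.9e-07).

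The list summed to 3027 and 2997 FPKM at day 21, 309 and 319 in Brain-NPC and 12606 and 12539 on day 1. On day 17 the sum was lower than at day 21, at 1557 and 1586 FPKM, given as values without a test. None of the list's defining markers was at 0 at day 21. Thy1, a surface protein of fibroblasts and also of neurons, was not called (47.8 and 62.1 CPM against 79.3 and 83.0 CPM). Fbln2, the matrix protein fibulin-2, was the 1 lower member, with 2.93 and 3.69 FPKM at day 21 and 107 and 112 in Brain-NPC (-4.68 ± 0.22, adjusted p = 6.23e-10). It had 198 and 212 FPKM on day 1.

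Of the other collagens, 14 of 25 were higher and 1 lower, and 16 and 0 with the GC correction. Col15a1, a basement membrane collagen, had 170 and 167 CPM against 0.462 and 0.431 CPM (8.49 ± 0.30, adjusted p = 1.86e-14). The lower member, the cartilage collagen Col9a3, lost its call with the GC correction (-0.54) and without any 1 of the 4 libraries (-1.10 to -1.36). In the laminin and integrin list 10 of 29 tested members were higher, 2 were lower and 17 were not called. The higher ones included Lama2 and Lama4, laminin chains of muscle and vessels (4.51 ± 0.30 and 3.46 ± 0.29), and the linker nidogen Nid1 (3.18 ± 0.15). Lama5, a laminin chain of epithelia and of the ventricular zone, was lower (-1.73 ± 0.24), a call lost with the GC correction (-0.96).

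Transcription factors of mesenchyme were higher in 20 of 35 tested members and lower in none. The list median was 4.53, or 2.10 with the 19 members that had no reads in a group set at their bounds. The list summed to 123 and 122 FPKM at day 21 and to 99.2 and 99.6 FPKM in Brain-NPC. Some calls rested on few reads, such as Hand2 with 4 at day 21 and 0 in Brain-NPC, at least 2.87-fold more. Snai2, a driver of epithelial to mesenchymal transition, had 11.1 and 10.9 CPM and no read in Brain-NPC, at least 49.4-fold more (adjusted p = 3.18e-07). Zeb1, which both mesenchyme and neural progenitors express, was not called, at 410 and 407 CPM against 699 and 703 CPM (-0.78 ± 0.13). Between 15 and 21 members were higher when any library was left out.

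Contractile genes were higher in 12 of 14 tested members, with a median of 3.78, and none was lower. Tagln, the smooth muscle protein transgelin, had 393 and 327 CPM against 6.01 and 4.6 CPM (6.08 ± 0.31, adjusted p = 3.1e-12). Acta2, smooth muscle actin, had 373 and 418 CPM against 8.62 and 12.5 CPM (5.22 ± 0.27, adjusted p = 2.43e-12). Its level at day 21 was above that on day 1 (103 and 121 CPM) and on day 17 (9.79 and 12.2 CPM), given as values without a test.

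Macrophage genes were also higher, in 24 of 25 tested members, with a median of 6.36, or 5.93 with members without reads set at their bounds. Csf1r, the M-CSF receptor on which macrophages depend, had 31.1 and 57.4 CPM at day 21 and 0.154 and 0.862 CPM in Brain-NPC (6.36 ± 0.59, adjusted p = 2.76e-08). Lyz2, lysozyme, had 439 and 544 CPM against 3.23 and 6.32 CPM (6.67 ± 0.59, adjusted p = 1.41e-08). Cx3cr1, the fractalkine receptor of microglia and tissue macrophages, had 78.9 and 81.1 CPM and no read in Brain-NPC, at least 359-fold more (adjusted p = 3.78e-10). The complement chain C1qc was at least 356-fold higher. The list summed to 566 and 664 FPKM at day 21, 11.7 and 13.6 in Brain-NPC, and 18196 and 18329 at its highest, on day 7.

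**Figure D4:**
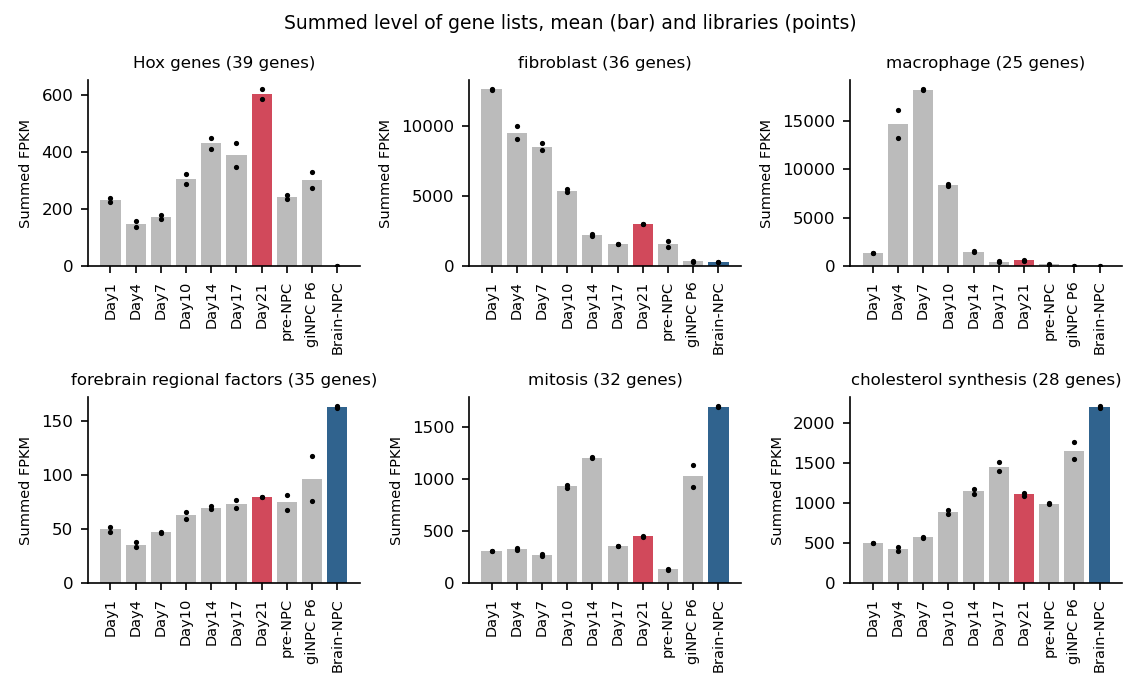
Summed FPKM of 6 gene lists on each day of induction, in primary clusters (pre-NPC), in the giNPC P6 line and in Brain-NPC; bars are means and points the 2 libraries. The Hox sum was 623 and 589 at day 21 (red) and 0.53 and 1.2 in Brain-NPC (blue), and forebrain, mitosis and cholesterol synthesis sums were highest in Brain-NPC.

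Genes of cell division were lower at day 21 as a group. Of 32 tested mitosis genes 31 were lower and none was higher, with a median log2 difference of -1.66. The GC correction made it 32 lower with a median of -1.79. Mki67, the proliferation antigen Ki-67 (chromosome 7, 142881471 to 142908062, mm9), had 260 and 242 CPM at day 21 and 1102 and 1142 CPM in Brain-NPC (-2.16 ± 0.16, adjusted p = 1.23e-09). Cenpa, the centromeric histone, had 17.7 and 13.1 CPM against 152 and 149 CPM (-3.29 ± 0.24, adjusted p = 9.06e-10). Ube2c, an enzyme of the anaphase-promoting complex pathway, had 39.3 and 38.4 CPM against 310 and 311 CPM (-3.00 ± 0.27, adjusted p = 1.84e-08). No day 21 library reached a Brain-NPC library in any of the 3, as in 35.9% of all genes.

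Of 32 genes of DNA replication, 26 were lower and none was higher, with a median of -1.41. Rrm2, a subunit of ribonucleotide reductase, had 52.0 and 67.1 CPM against 469 and 462 CPM (-2.97 ± 0.21, adjusted p = 3.48e-10). Ccnd1, cyclin D1 of the step into S phase, had 932 and 839 CPM against 2505 and 2567 CPM (-1.52 ± 0.16, adjusted p = 1.22e-07). Cdkn1c, the cell cycle inhibitor p57, was higher, with 8.86 and 7.97 FPKM against 2.76 and 2.95 (1.29 ± 0.19, adjusted p = 4.51e-05), whereas Cdkn1a, the inhibitor p21, was not called (140 and 138 FPKM against 147 and 147). In the list of D cyclins and CDK inhibitors 2 of 14 tested members were higher, near the 14.0% over all genes, and 5 were lower. The lower ones were Cdkn2d, Cdkn3, Ccnd1, Cdkn2c and Ccnd3, and Cdkn2d lost its call without day 21 replicate 2 (-1.78). The GC correction gave 4 higher and 6 lower. With it the call of Ccnd3 was lost, and Ccnd2, Cdkn2a, Cdkn2b and Rbl1 were newly called. The mitosis list summed to 457 and 445 FPKM at day 21 and 1696 and 1688 FPKM in Brain-NPC, and to 310 and 312 FPKM on day 1.

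Promoters of mitosis genes are known to hold a short element, TTTGAA (the cell cycle genes homology region), and CCAAT boxes. Both were searched on both strands in the 250 bases before the annotated start (RefSeq, GRCm38.p6, a later build than the mm9 of the expression values). TTTGAA was found in 9 of the 26 lower mitosis genes with a promoter entry (34.6%) and in 15.9% of 25748 promoters. CCAAT was found in 20 of the 26 (76.9%) and in 34.3% of all. Among the lower DNA replication genes TTTGAA was found in 3 of 21 (14.3%) and CCAAT in 12 of 21 (57.1%). Among the lower cholesterol synthesis genes TTTGAA was found in 1 of 13 (7.69%) and CCAAT in 10 of 13 (76.9%), the same CCAAT share as in the mitosis genes. A sterol regulatory element, TCACCCCAC, and E2F sites, TTTCGCGC and TTTGGCGC, were searched as well. The sterol element was found in 0 of the 13 cholesterol synthesis genes and in 0.482% of all promoters. TTTCGCGC was found in 3 of the 21 DNA replication genes (14.3%), 1 of the 26 mitosis genes (3.85%) and 0.264% of all. TTTGGCGC was found in 2 of the 21 (9.52%), 0 of the 26 and 0.439% of all. Matches are descriptions of the letters and not of binding. The 150 bases before the start are shown for Ube2c (chr2:164769779-164769928, plus strand), Cdk1 (chr10:69352913-69353062, minus strand) and Cdc20 (chr4:118437344-118437493, minus strand), 3 lower mitosis genes that hold TTTGAA and CCAAT close to the start. Capitals mark TTTGAA and CCAAT or their reverse complements TTCAAA and ATTGG, which do not overlap here.
Ube2c: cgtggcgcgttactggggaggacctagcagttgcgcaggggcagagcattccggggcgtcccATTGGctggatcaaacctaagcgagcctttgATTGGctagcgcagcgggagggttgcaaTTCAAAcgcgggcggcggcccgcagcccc
Cdk1: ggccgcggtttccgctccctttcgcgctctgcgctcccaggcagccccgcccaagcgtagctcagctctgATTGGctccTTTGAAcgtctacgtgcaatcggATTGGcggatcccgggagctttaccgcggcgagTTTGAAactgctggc
Cdc20: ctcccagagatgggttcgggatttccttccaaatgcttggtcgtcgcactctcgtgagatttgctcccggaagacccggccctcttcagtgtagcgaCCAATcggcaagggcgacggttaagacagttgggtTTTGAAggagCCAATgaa
Cdk1, the kinase that drives entry into mitosis, had 41.9 and 70.8 CPM at day 21 and 302 and 314 CPM in Brain-NPC (-2.45 ± 0.18, adjusted p = 8.04e-10). Cdc20, an activator of the anaphase-promoting complex, had 96.2 and 74.3 CPM against 371 and 395 CPM (-2.17 ± 0.20, adjusted p = 1.94e-08).

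Cholesterol and fatty acid synthesis was lower at day 21 as well, in 21 of 27 tested members with none higher and a median of -1.55. The count was 20 with the GC correction and 21 without any 1 library. Lss, lanosterol synthase (chromosome 10, 75994372 to 76016679, mm9), had 30.8 and 39.6 CPM at day 21 and 323 and 316 CPM in Brain-NPC (-3.18 ± 0.25, adjusted p = 1.89e-09). Fasn, fatty acid synthase, had 217 and 268 CPM against 1909 and 1962 CPM (-3.00 ± 0.24, adjusted p = 2.9e-09).

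Genes of lipid transport were higher in 7 of 16 tested members and lower in 1, and 6 were higher with the GC correction. Lpl, lipoprotein lipase, had 232 and 175 CPM against 25.1 and 22 CPM (3.11 ± 0.23, adjusted p = 9.97e-10). The lower one was Lrp2, the endocytic receptor megalin of forebrain neuroepithelium, with 0.327 and 0.624 CPM against 28.8 and 27.0 CPM, a ratio of 58.2 in favour of Brain-NPC (95% interval 19.8 to 283, adjusted p = 1.49e-05).

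Signalling genes are given by pathway, and the pathways were not tested against each other. The Notch pathway keeps progenitors undifferentiated through Hes factors, and 11 of its 27 tested members were lower and 2 higher. The GC correction left 7 lower and 5 higher. Hes5, the main Notch target in neural progenitors, had 8.83 and 13.7 CPM at day 21 and 85.6 and 89.4 CPM in Brain-NPC (-2.95 ± 0.27, adjusted p = 6.94e-08). Nrarp, a target that feeds back on the pathway, had 4.91 and 4.99 CPM against 119 and 121 CPM (-4.60 ± 0.28, adjusted p = 1.17e-10). The modifier Lfng had 134 and 132 CPM against 569 and 578 CPM (-2.11 ± 0.16, adjusted p = 1.89e-09). Of the receptors, Notch1 (-1.07) and Notch3 (-1.32) lost their calls with the GC correction (-0.46 and -0.57). Hey2, a target used in vessels and glia, was higher (1.98 ± 0.35, adjusted p = 8.49e-05).

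BMP signals favour astrocyte fate and mesenchyme, and 14 of 31 tested members were higher and 2 lower, with 11 higher after the GC correction. Among ligands, Bmp4 had 10.1 and 8.74 CPM at day 21 and 1.54 and 0.287 CPM in Brain-NPC (3.36 ± 0.58, adjusted p = 7.59e-05), whereas Bmp7 was lower, with 12.1 and 13.4 CPM against 129 and 141 CPM (-3.40 ± 0.41, adjusted p = 1.02e-06). Among targets, Id2 had 449 and 451 CPM against 106 and 111 CPM (2.05 ± 0.14, adjusted p = 3.28e-10), while Id1 (0.05 ± 0.34) and Id3 (-0.00 ± 0.29) overlapped between groups.

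TGF-beta genes were higher in 10 of 21 tested members, or 12 with the GC correction, and lower in none. Tgfb3, a ligand, had 78.9 and 74.9 CPM against 8.62 and 5.32 CPM (3.47 ± 0.28, adjusted p = 2.68e-09), and the activin subunit Inhba, with 21.9 and 12.5 CPM and no read in Brain-NPC, was at least 76.6-fold higher. Tgfbi, a secreted target of the pathway in fibroblasts and macrophages, had 66.7 and 105 CPM against 0.616 and 1.15 CPM (6.56 ± 0.33, adjusted p = 2.33e-12). Fibroblast and macrophage markers were higher in the same libraries, and their part was not tested.

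In the FGF and EGF list 7 of 38 tested members were higher and 5 lower, near the 14.0% and 12.2% over all genes, and 6 and 1 with the GC correction. Egfr, the receptor for the mitogen EGF, had 17.7 and 16.5 FPKM at day 21 and 54.6 and 56.7 in Brain-NPC (-1.64 ± 0.15, adjusted p = 4.34e-07), and this held with the GC correction (-1.74). Fgfr1, a receptor for the mitogen FGF2, had 23.2 and 26.2 FPKM against 55.0 and 55.5 (-1.13 ± 0.16, adjusted p = 3.35e-05), but not with the correction (-0.66). Fgf1, an FGF ligand, was higher, with 475 and 516 CPM against 146 and 138 CPM (1.81 ± 0.18, adjusted p = 7.04e-08). Errfi1, a feedback inhibitor of the EGF receptor, was higher as well (132 and 123 CPM against 22.5 and 22.3 CPM, 2.51 ± 0.16, adjusted p = 6.55e-11).

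In the Wnt list 10 of 47 tested members were higher and 6 lower, the latter near the 12.2% over all genes. With the GC correction 15 were higher and 4 lower. Called ligands went both ways. The ligands Wnt7a and Wnt7b of the embryonic forebrain were lower, Wnt7a with 35.0 and 37.8 CPM against 120 and 132 CPM (-1.79 ± 0.24, adjusted p = 7.6e-06). Wnt3 was lower too, with a ratio of 16.3 (95% interval 2.74 to 661). Wnt9a was higher, with 14.7 and 10.9 CPM against 0.924 and 0.431 CPM (4.21 ± 0.53, adjusted p = 1.53e-06). On few reads, Wnt8b was at least 7.16-fold higher and Wnt11 at least 5.73-fold higher. Secreted inhibitors were split. Dkk2 was higher, with 36.3 and 20.9 CPM against 0 and 0.431 CPM, a ratio of 127 (95% interval 42.9 to 624, adjusted p = 2.16e-09). Wif1, Frzb and Sfrp1 were higher too, Sfrp2 was lower (-1.46 ± 0.51), a call lost with the GC correction (-1.15), and Sfrp4, Sfrp5, Dkk1 and Dkk3 were not called. In the Hedgehog list 3 of 20 were higher, near the 14.0% over all genes, and 4 were lower, and 4 and 2 with the GC correction. The ligand Dhh had no read at day 21 and 18.8 and 21.3 CPM in Brain-NPC, at least 41.9-fold more (adjusted p = 4.11e-05). Ptch1, receptor and target of the pathway, had 46.1 and 34.3 CPM against 111 and 118 CPM (-1.51 ± 0.24, adjusted p = 3.3e-05). Olig2 and Smo were the other lower members, and both calls were lost with the GC correction. The higher members were Nkx6-1, Boc and Gli1. Boc had 74.9 and 73 CPM against 32.3 and 26 CPM (1.34 ± 0.19, adjusted p = 6e-06). Gli1 had 10 reads over both day 21 libraries against 1 in Brain-NPC, a ratio of 21.5 (95% interval 3.06 to 933).

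Of 28 tested genes of the oligodendrocyte lineage 3 were higher and 4 lower, near the 14.0% and 12.2% over all genes. The lower ones were Olig1, Olig2 and Sox10, transcription factors of the lineage, and the progenitor proteoglycan Cspg4 (NG2). Olig2 had 545 and 586 CPM against 1380 and 1351 CPM (-1.27 ± 0.34, adjusted p = 0.00451), and the calls of Olig1, Olig2 and Sox10 were lost with the GC correction (-0.48, -0.59 and -0.18), which left only Cspg4 lower (-1.54) and 6 members higher. Mbp, myelin basic protein, had 9.28 and 10.8 FPKM against 1.42 and 1.2 (2.25 ± 0.24, adjusted p = 2.12e-06). Mog, of mature myelin, had no read in any of the 4 libraries.

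Of 36 tested neuronal genes 5 were higher and 4 lower, near the 14.0% and 12.2% over all genes, and 3 and 3 with the GC correction. The higher count was 2 without either day 21 library and 3 without either Brain-NPC library, and the lower count was 2 without day 21 replicate 1. Reln, the secreted guide of migrating neurons, had 113 and 107 CPM against 38.0 and 39.9 CPM (1.49 ± 0.29, adjusted p = 0.000232). Nefl, the light neurofilament, had 0.982 and 2.18 CPM against 16.8 and 16.5 CPM (-3.37 ± 0.56, adjusted p = 4.63e-05). Tubb3, neuronal tubulin, was not called, with 35.0 and 37.8 CPM against 26.8 and 31.7 CPM (0.31 ± 0.20).

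Several defining markers of other cell types were near 0 in the 4 libraries. Cdh5 of endothelium had no read, Pecam1 was at most 0.106 FPKM, and Epcam and Cdh1 of epithelium were at most 0.624 CPM. Of 16 endothelial genes none was higher and 2 were lower, near the 12.2% over all genes. The lower ones were Flt1 (4.25 and 8.42 CPM against 22.6 and 24.4 CPM) and Plvap (11.8 and 12.2 CPM against 36.3 and 31.0 CPM). With the GC correction 1 endothelial gene was higher, and the call of Plvap was lost (-0.69). Foxj1, of ciliated ependymal cells, overlapped between groups with 43.8 and 46.8 CPM at day 21 and 49.9 and 39.7 CPM in Brain-NPC. Pou5f1, the pluripotency factor Oct4, was at most 0.862 CPM in any library.

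**Figure D5:**
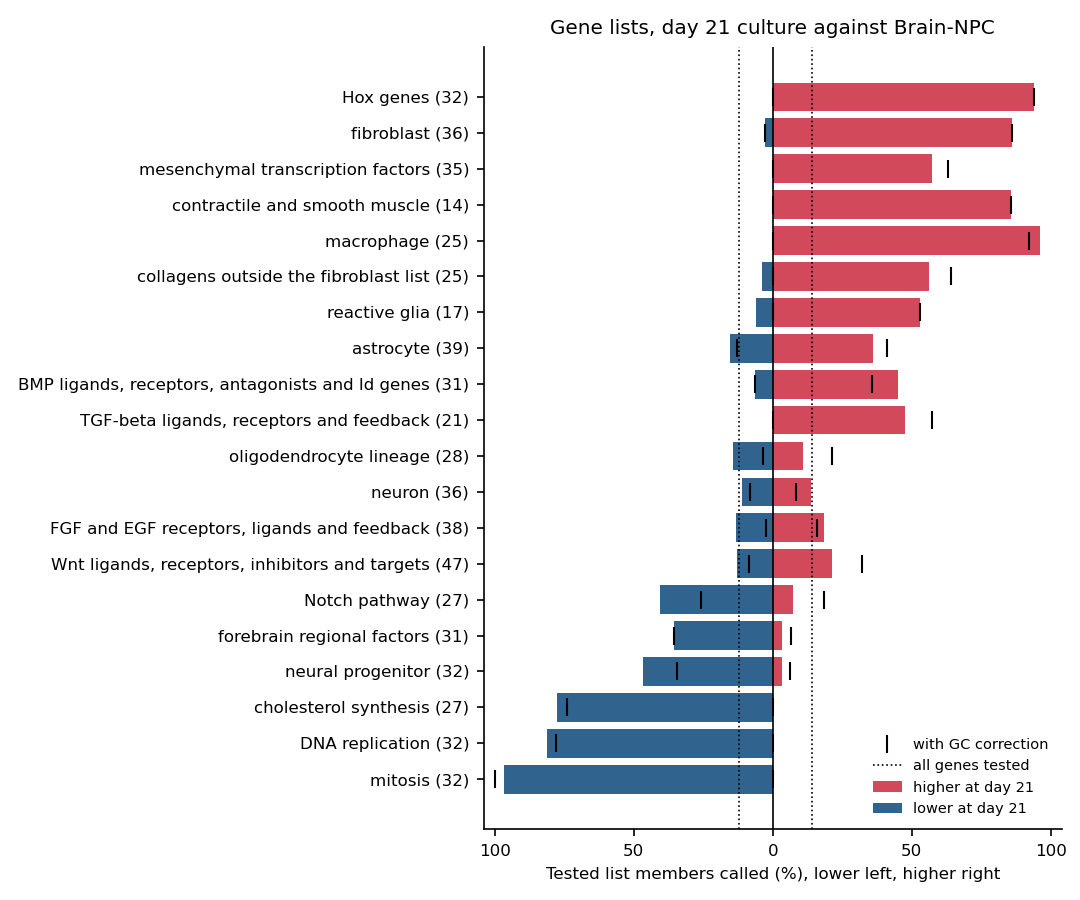
Percentage of tested members of 20 gene lists called higher (red, right) or lower (blue, left) at day 21 than in Brain-NPC, with the number tested in brackets. Ticks give the same with the GC correction, and dotted lines the 14.0% higher and 12.2% lower over all genes tested: Hox, fibroblast, contractile and macrophage lists lie far to the right and mitosis, DNA replication and cholesterol synthesis far to the left.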

How the data were processed

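Poly(A) RNA-seq libraries were aligned and quantified by the submitters with TopHat2 2.0.12, HTSeq 0.6.0 and Cufflinks 2.2.1 on mm9, per the submitters' processing notes, which give no strand setting. The authors deposited whole-number read counts per transcript and FPKM values per transcript and gene for each library. Lines for reads in no feature, 48.78% to 56.31% of counted reads in these 4 libraries, were left out of library sizes. Counts were summed per gene symbol, and genes on chromosomes X and Y were left out. Genes with 1 transcript were tested on counts with edgeR 4.0.16 (TMM, filterByExpr, quasi-likelihood) and genes with several on log2(FPKM + 1) with limma 3.58.1 in R 4.3.3, keeping FPKM of at least 1 in 2 libraries. All 22 libraries in 11 groups entered each fit (11 residual degrees of freedom), so the spread was estimated over all groups. Fold changes on the log2(FPKM + 1) scale understate changes of low genes.

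The members and lists were chosen with earlier results of these data known. Genes named were the 12 with the largest change in each direction, up to 3 per list and direction with at least 10 CPM or 5 FPKM, the 5 highest by FPKM in each group, and a set of fixed markers, which gave 219 genes. Further list members were named after their values were seen. Replicate numbers did not pair the libraries (correlation of deviations 0.04 over 8485 genes). Replicates differed by more than counting noise (chi-square per degree of freedom 4.70 at day 21 and 2.19 in Brain-NPC). Alternatives were DESeq2 1.42.0, other scalings, filters and pseudocounts, leaving out each library, a replicate block, and a per-library smooth on transcript GC content. Results for a few genes are not reported here.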

Additional observations from a re-analysis of the deposited data

How the results depend on the processing

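Among the 219 named genes, none that was called in the main fit or in the alternative changed direction under the alternatives run. Changes of sign in genes called in neither were not counted. With FPKM and limma for the genes tested on counts, 1294 were higher and 1207 lower, against 2004 and 1867 on counts. With a pseudocount of 0.1, 2415 genes tested on FPKM were higher, against 1494. The GC correction combined with a replicate block left 1234 genes lower on counts and 1260 lower over all genes tested. The replicate block alone gave 2174 higher and 1898 lower over all genes and changed no call among the named genes. Leaving out each library in turn gave 1683 to 1823 higher and 1550 to 1729 lower on counts, 1477 to 1548 higher and 1351 to 1476 lower on FPKM, and 1903 to 2043 higher and 1652 to 1850 lower over all genes. The GC correction ended 25 calls among the named genes and added 1, and 1727 of the 2200 higher genes and 1123 of the 1917 lower genes remained called. The cause of these changes was not tested. With 2 libraries a group and the day 21 libraries the shallower, called genes with 3 or fewer reads in a group are given as bounds or ratios.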

Other observations

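Of 30 tested imprinted genes 14 were higher at day 21 and 3 lower, the latter near the 12.2% over all genes. With the GC correction 14 were higher and 5 lower. H19, a non-coding RNA of embryonic mesoderm, had 741 and 718 CPM against 13.9 and 17.8 CPM in Brain-NPC (5.52 ± 0.33, edgeR adjusted p = 3.62e-11). Its neighbour Igf2, a fetal growth factor, had 46.0 and 40.3 FPKM against 0.877 and 1.43 (4.37 ± 0.23, limma adjusted p = 2.46e-09). Nnat, neuronatin of the developing brain, was lower, with 86.9 and 76.3 FPKM against 451 and 454 (-2.46 ± 0.23, adjusted p = 5.99e-07). In the IGF list 6 of 14 members were higher and 4 lower, and Igfbp5 and Igfbp2, which bind IGFs, were on opposite sides (2.62 ± 0.28 and -2.06 ± 0.18). Fibroblast markers were higher in the same libraries, and their part was not tested.

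Neurotransmitter receptors also differed, with 10 of 30 glutamate and GABA receptor genes higher and 6 lower, and 8 and 6 with the GC correction. Gabra2, a GABA-A receptor subunit, had 111 and 97.4 CPM at day 21 and 4.93 and 6.75 CPM in Brain-NPC (4.15 ± 0.53, adjusted p = 2.14e-06). Grin2c, an NMDA receptor subunit, had no read at day 21 and 13.4 and 13.4 CPM in Brain-NPC, at least 27.9-fold more. Ttr, transthyretin, which the choroid plexus secretes, had 442 and 440 CPM in Brain-NPC and 1 read over both day 21 libraries, a ratio of 2762 (95% interval 496 to 109127). Gm5506 was lower on counts (10.1 and 17.5 CPM against 784 and 740 CPM), but its FPKM was 429 and 491 against 1193 and 1177, so its value is uncertain.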
